A study of Mus musculus with 19 samples.

Results

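Plantaris tendon from scleraxis-positive (Scx+) mice after 14 days of a growth stimulus was compared with plantaris tendon from Scx+ mice that had received no stimulus, across every gene of the deposited per-gene table. The members were the 4 Scx+ day 14 libraries and the 3 control libraries, 7 of the 19 libraries in all, chosen by their column names. The plantaris tendon joins a small calf muscle to the heel. Total RNA was sequenced from each sample. The day 14 mice carried the Scx+ genotype and were given tamoxifen, while the controls carried the same genotype and were labelled as untreated with tamoxifen, so stimulus and tamoxifen cannot be told apart. The labels used here state neither alleles, strain, sex and age nor what the growth stimulus was. Nor do the labels say that replicates came from separate animals, and each p-value then measures the spread between samples, which may be technical. Scx+ day 7 libraries (n = 4, tamoxifen given) and Scx- day 14 libraries (n = 4, tamoxifen given) were used to test where the day 14 values differed from a neighbouring group. All 19 libraries entered the same model and so shared the scaling, the filter and the estimate of the spread behind each adjusted p. The title of the study says that scleraxis was deleted in the Scx- mice.

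Tendon is built by fibroblasts called tenocytes, which secrete type I collagen, assemble it into aligned fibrils with the help of small proteoglycans, and crosslink the fibrils with lysyl oxidases. Scleraxis (Scx) is a transcription factor of the tendon lineage, and tenomodulin (Tnmd) is a membrane protein that marks mature tenocytes. Adult tendon turns its matrix over slowly, and when load on it rises, new matrix is laid down in the sheath and between fascicles by dividing cells of the fibroblast lineage.

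The deposited signal, a scaled and non-whole value per gene, summed to between 67808701 and 79768350 units in the controls and between 43779840 and 47565081 units at day 14. The number of reads behind it is unknown, so no counting interval is given. Tendon markers were present in every library, but the libraries were not tendon alone. Scx and Tnmd, whose values are given with the other tendon genes, were above 0 in all 7 libraries. Of the signal, 26 genes of skeletal muscle fibres took 25.5%, 30.3% and 26.2% in control replicates 1 to 3, and 0.308%, 5.46%, 2.83% and 9.23% in day 14 replicates 1 to 4. Thus every control library held more muscle signal than every day 14 library, with replicate 1 the lowest and replicate 4 the highest of the day 14 group. Adipocyte genes took the same course, with 0.242% to 0.304% of the signal in the controls and 0.0198% to 0.0887% at day 14. In bulk tissue, fewer cells of a type and less RNA per cell cannot be told apart. The part that muscle and fat content plays in the differences below was not tested, beyond a fit that takes the mean of the muscle list as a covariate. In the plot of list shares, the day 14 libraries lie above the controls for fibrillar collagens and below them for muscle, fat and energy metabolism.

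**Figure D1:**
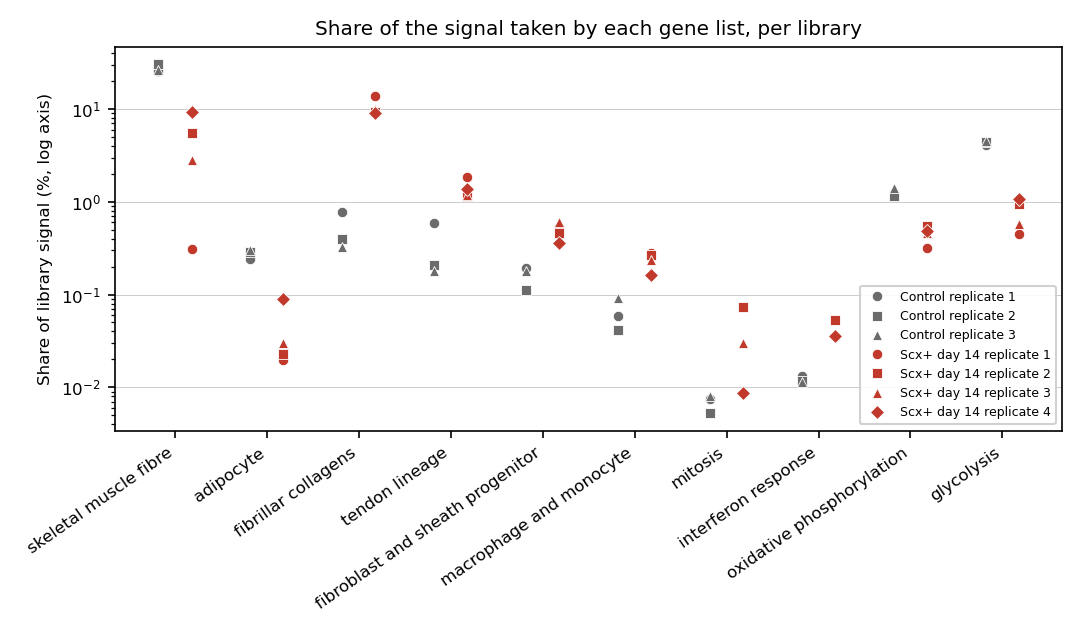
Share of each library's signal (percent, log axis) taken by 10 gene lists, with 1 point per library: grey for the 3 controls, red for the 4 Scx+ day 14 libraries, and the marker shape for the replicate number. Muscle fibre genes take 25.5% to 30.3% in the controls and 0.308% to 9.23% at day 14, and fibrillar collagens 0.329% to 0.78% against 9.09% to 13.7%.

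Of 16619 genes tested, 9293 passed an adjusted p of 0.05 in limma, which is 55.9%. The 5142 that were higher at day 14 made up 30.9% of the tested genes, and the 4151 that were lower made up 25.0%. Among the genes that passed, 6226 differed by at least 1 log2 unit and 1385 by at least 3. The median log2 difference over all tested genes was 0.15, with 9152 genes positive and 7467 negative. Differences are of log2(value + 2) after rescaling by medians of ratios, which understates the change of genes with low values. The balance between higher and lower depends on the scaling: with library totals the median of all genes moved up by 0.58, and 8428 genes passed higher and 2114 lower, so that 79.9% of the calls were higher instead of 55.3%. Directions in the text are relative to the typical gene, and lists whose median changes sign under library totals are named where they are described. The plot of list counts sets each gene list beside the shares over all tested genes.

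**Figure D2:**
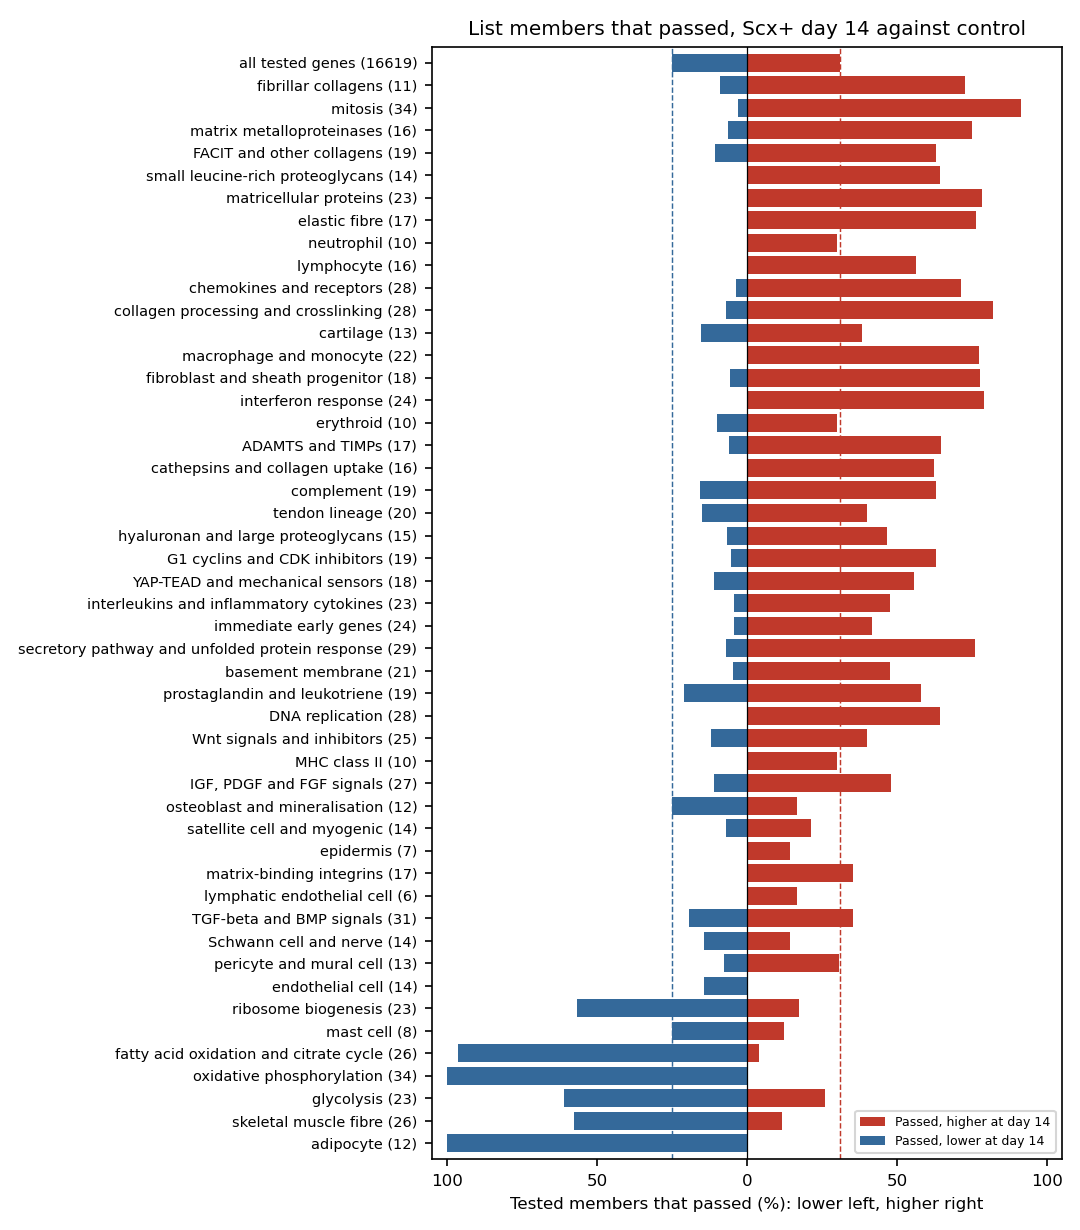
Percent of the tested members of each of 48 gene lists that passed (limma, adjusted p under 0.05) higher at Scx+ day 14 (red, to the right) or lower (blue, to the left), with the number of tested members in brackets and the lists ordered by their median log2 difference. The top bar and the dashed lines give the same shares over all 16619 tested genes, 30.9% and 25.0%; all 34 members of the oxidative phosphorylation list lie to the left and 31 of 34 mitosis genes to the right.

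The tendon lineage factors Scx and Mkx were higher at day 14. Scx, annotated on the plus strand at chr15:76457452-76459458 (mm10), was 589, 439.6 and 317 in the controls and 5060.2, 3723, 5012 and 2082 at day 14, a log2 difference of 3.10 ± 0.42 (SE, adjusted p = 1.58e-05, limma). All 4 day 14 libraries lay above all 3 controls, and replicate 4 was the lowest of the 4. The share of all tested genes without overlap is not given. A lack of overlap, here and below, therefore describes the values of a gene and is not read as support. Mohawk (Mkx), a homeobox factor that maintains tendon collagen expression, was 308, 209 and 138 in the controls and 2604, 1558, 1465 and 798 at day 14. Mkx rose by 2.82 ± 0.45 (SE, adjusted p = 6.26e-05, limma). The early growth response factor Egr1, which acts on collagen genes in tendon, was 1982, 2016 and 1925 in the controls and 5423, 3364, 8071 and 2648 at day 14, without overlap, but its log2 difference of 1.17 ± 0.58 (SE, adjusted p = 0.0984, limma) did not pass. With library totals or in a fit of the 7 libraries alone Egr1 passed (adjusted p = 0.0134 and 0.0169). Eya2, a transcriptional co-activator, was 144, 84.3 and 37 in the controls and 694, 554, 684 and 1145 at day 14. Eya2 rose by 3.23 ± 0.40 (SE, adjusted p = 7.01e-06, limma).

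Among the products of tenocytes, Tnmd (chrX:133850980-133865577) rose by 4.51 ± 0.67 (SE, adjusted p = 4.52e-05, limma), from 3032, 1266 and 881 in the controls to 62445, 38826, 36113 and 15646 at day 14. Thrombospondin 4 (Thbs4), a pentameric glycoprotein of tendon matrix, rose by 3.42 ± 0.44 (SE, adjusted p = 8.48e-06, limma). In contrast, 3 matrix proteins that are abundant in mature tendon did not pass. Fibromodulin (Fmod), a proteoglycan that shapes collagen fibrils, was 98816, 33150.1 and 22095 in the controls and 127322, 78382, 96133 and 92441 at day 14 (1.22 ± 0.60, SE, adjusted p = 0.0919, limma), and control replicate 1 lay above 3 of the day 14 libraries. Without that library Fmod passed (adjusted p = 0.0196), as it did with library totals and in a fit of the 7 libraries alone (0.0175 and 0.0497). Cartilage oligomeric matrix protein (Comp), which binds collagen fibrils, was 47373, 19842 and 11069 in the controls and 73014, 37792, 43866 and 34494 at day 14 (1.05 ± 0.67, adjusted p = 0.194, and 0.0488 with library totals). Chondroadherin (Chad), a leucine-rich adhesion protein, was 52861, 26506 and 14115 in the controls and 13134, 5696, 8013 and 2435 at day 14 (-2.13 ± 0.93, adjusted p = 0.0627). Chad passed lower without day 14 replicate 1 (adjusted p = 0.0479), without robust moderation (0.0488), in the 7 libraries alone (0.0296) and with muscle genes as the covariate (0.00774). Comp and Chad were picked after their values were seen. Of 20 tendon lineage genes tested, 8 passed higher and 3 lower, against 30.9% and 25.0% of all tested genes. The log2 differences ran from -3.76 to 5.62, with a median of 1.19. None of the tendon genes described above is among the 3 that passed lower, so those genes do not represent the whole list. With library totals 13 passed higher and 2 lower.

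Collagen genes took a larger part of every day 14 library than of any control. Fibrillar collagen genes together took 0.329% to 0.78% of the signal in the controls and 9.09% to 13.7% at day 14. Col1a1, which encodes the main chain of type I collagen, was 131543, 77531 and 55952 in the controls and 1766844, 1105832, 1203329 and 1436886 at day 14, a log2 difference of 4.03 ± 0.45 (SE, adjusted p = 2.23e-06, limma). The second type I chain Col1a2 rose by 3.66 ± 0.45 (SE, adjusted p = 5.91e-06, limma). Col3a1, the chain of type III collagen that is laid down early in repair, was 132932, 77814 and 69897 in the controls and 1899454, 1335194, 1498265 and 1219657 at day 14. Col3a1 rose by 4.03 ± 0.45 (adjusted p = 2.33e-06). The 3 genes thus rose by similar amounts. The type V chains Col5a1 and Col5a2, which start fibrils and limit their width, rose by 3.80 and 3.80, and the type XI chain Col11a1 by 4.17 ± 0.59 (adjusted p = 2.74e-05). Of 11 fibrillar collagen genes, 8 passed higher and 1 lower, with a median of 3.80. The lower gene was Col24a1 (-1.40 ± 0.38, adjusted p = 0.00452, picked after its value was seen), which no longer passed with library totals (adjusted p = 0.113). With the mean of the muscle genes as a covariate the counts were again 8 and 1, at a median of 3.48.

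Collagens that coat or link fibrils also rose, with 12 of 19 genes higher, 2 lower and a median of 3.07. Col12a1, a fibril-associated collagen of tendon sheaths and growing tendon, was 3958, 2272 and 1508 in the controls and 92013, 59926, 36437 and 61397 at day 14. Col12a1 rose by 4.63 ± 0.41 (SE, adjusted p = 2.73e-07, limma). Col8a1, a short-chain network collagen, was 989, 386 and 509.7 in the controls and 17476, 19685, 20118 and 19670.3 at day 14. Col8a1 rose by 5.05 ± 0.53 (adjusted p = 1.58e-06). The type VI chain Col6a2, part of the matrix around the cell, rose by 3.39 ± 0.46 (adjusted p = 1.57e-05). Of the 2 that fell, Col9a1, a chain of the cartilage collagen IX, was 1826, 2925 and 1457 in the controls and 46.9, 80.1, 55.4 and 26 at day 14 (-5.30 ± 0.69, adjusted p = 9.74e-06). The other was Col22a1, a collagen of tissue junctions such as the muscle end of tendon, at 14459, 12267 and 14238 in the controls and 373, 2899, 1697 and 2646 at day 14 (-3.19 ± 1.0, adjusted p = 0.0133). Col22a1 was picked after its value was seen.

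Most enzymes that process collagen rose. Of 28 tested, 23 passed higher and 2 lower, with a median of 1.98. Lysyl oxidase (Lox), which starts the crosslinks between collagen molecules, was 8594, 2952 and 2523 in the controls and 102351, 90684, 59025 and 112373 at day 14. Lox rose by 4.47 ± 0.41 (SE, adjusted p = 3.57e-07, limma), and Loxl1 rose by 3.28 ± 0.29 (adjusted p = 2.34e-07). P4ha3, a prolyl hydroxylase subunit, was 574, 399 and 376 in the controls and 6079, 4368, 5331 and 4512 at day 14. P4ha3 rose by 3.50 ± 0.26 (adjusted p = 3.75e-08). P3h3, of the lysyl and prolyl hydroxylase complexes, rose by 2.87 ± 0.26 (adjusted p = 3.64e-07). Serpinh1, the collagen chaperone HSP47, rose by 2.81 ± 0.32 (adjusted p = 2.87e-06) and the lysyl hydroxylase Plod1 by 1.60 ± 0.16 (adjusted p = 9.11e-07); both were picked after their values were seen. Lower were Pcolce2 (-1.42 ± 0.47, adjusted p = 0.017), an enhancer of procollagen cleavage, and Mia3 (-0.52 ± 0.14, adjusted p = 0.00342), which loads collagen into transport vesicles. These 2 are also named after seeing their values; with library totals Pcolce2 did not pass (adjusted p = 0.142) and the difference of Mia3 turned to 0.08. Pcolce2 did not pass either without control replicate 1 or 3 (adjusted p = 0.0542 and 0.0595) or with sample quality weights (0.087).

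In the wider secretory pathway 22 of 29 genes passed higher and 2 lower, with a median of 0.89. Kdelr3, a receptor that returns proteins to the endoplasmic reticulum, was 1153, 835 and 958 in the controls and 9602, 9342, 8954 and 5895 at day 14. Kdelr3 rose by 3.09 ± 0.27 (SE, adjusted p = 2.41e-07, limma). Sec24d, a coat protein of the vesicles that carry procollagen, rose by 2.42 ± 0.29 (adjusted p = 5.41e-06). The translocon channel Sec61a1 rose by 1.81 ± 0.21 (adjusted p = 3.23e-06) and the disulfide isomerase Pdia3 by 2.03 ± 0.24 (adjusted p = 3.81e-06). Of the ribosome biogenesis genes 4 of 23 passed higher and 13 lower, with a median of -0.39. With library totals 9 passed higher and 4 lower, and the median turned to 0.22. Wdr12, which acts in maturation of the large ribosomal subunit, was 1268, 1616 and 1621 in the controls and 571, 794, 616 and 575 at day 14 (-1.23 ± 0.16, adjusted p = 1.12e-05).

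Small proteoglycans that sit on fibrils divided into a group that rose and a group that did not pass. Of 14 tested, 9 passed higher and 0 lower, with a median of 2.70. Asporin (Aspn) was 6693, 4095 and 8226 in the controls and 96368, 91627, 108876 and 63791 at day 14. Aspn rose by 3.86 ± 0.40 (SE, adjusted p = 1.2e-06, limma), and osteoglycin (Ogn) rose by 4.23 ± 0.43 (adjusted p = 1.11e-06). Biglycan (Bgn) was 53165, 27534 and 26502 in the controls and 260556, 216104, 277408 and 223152 at day 14. Bgn rose by 2.84 ± 0.27 (adjusted p = 4.81e-07). Lumican (Lum, picked after its values were seen) was 10004, 2424 and 5028 in the controls and 100019, 92735, 88995 and 31730.5 at day 14, with day 14 replicate 4 well below the other 3, and rose by 3.85 ± 0.65 (adjusted p = 0.000124). Podnl1 was listed at 0 in all 3 controls and at 211, 112, 109 and 67.6 at day 14. Decorin (Dcn), a proteoglycan that limits the width of fibrils, was 142334, 58181 and 65449 in the controls and 242262, 213886, 229450.2 and 100393 at day 14, with overlap between the groups. Its log2 difference of 1.19 ± 0.48 (SE, adjusted p = 0.0441, limma) passed narrowly and no longer passed in 10 of 19 alternatives, among them the fits without control replicate 2 or 3 or day 14 replicate 1, 2 or 3 (adjusted p = 0.164, 0.139, 0.102, 0.0861 and 0.0919). Prelp, a heparin-binding relative of Fmod, was 44651, 17939 and 12996 in the controls and 16688, 13477, 29871 and 33982 at day 14 (0.00 ± 0.53, adjusted p = 0.999, picked after its values were seen). Its difference changed sign in 8 of the alternatives and passed in none of them.

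Matricellular proteins, which signal to cells from the matrix instead of bearing load, held 3 of the 15 largest rises among genes whose share of the signal averaged 5 ppm or more. Cthrc1, a secreted protein of activated fibroblasts (chr15:39076932-39087121), was 106, 72.4 and 159.7 in the controls and 53566, 44183, 51935 and 24699.9 at day 14. Cthrc1 rose by 8.58 ± 0.43 (SE, adjusted p = 6.61e-10, limma). Periostin (Postn), which helps to align and crosslink new collagen, was 3509, 2022 and 2919.7 in the controls and 484826, 421100.5, 362226 and 314183 at day 14. Postn rose by 7.15 ± 0.35 (adjusted p = 4.56e-10). Tenascin-N (Tnn) was 151, 44 and 29.9 in the controls and 12837, 9587, 5217 and 11410.3 at day 14. Tnn rose by 7.25 ± 0.52 (adjusted p = 3.93e-08). Wisp1, a CCN family protein, was 77.8, 83 and 35.5 in the controls and 7178, 5881, 3807 and 2951 at day 14. Wisp1 rose by 6.20 ± 0.42 (adjusted p = 2.14e-08). Matn3, a matrilin of cartilage matrix, was listed at 0 in all 3 controls and at 345, 352, 444 and 98.1 at day 14. Of 23 tested, 18 passed higher and 0 lower, with a median of 2.56, and 5 of the 28 listed symbols do not occur in the table.

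Elastic fibre genes rose too, with 13 of 17 higher, 0 lower and a median of 2.37. Fibrillin 2 (Fbn2), the fibrillin of developing tissue, was 15.2, 19.8 and 10.5 in the controls and 5040.0, 3329.7, 2704 and 4037 at day 14. Fbn2 rose by 7.78 ± 0.48 (SE, adjusted p = 9.63e-09, limma). The microfibril proteins Mfap4 and Mfap5 rose by 5.35 ± 0.30 (adjusted p = 2.38e-09) and 3.34 ± 0.27 (adjusted p = 8.62e-08), and the fibre assembly protein Emilin1 by 3.40 ± 0.30 (adjusted p = 2.86e-07). Of 15 genes for hyaluronan and large proteoglycans, 7 passed higher and 1 lower (median 1.14). Aggrecan (Acan), the large proteoglycan that holds water in cartilage and compressed tendon, was 730.3, 212 and 92.9 in the controls and 14989, 7923, 3772 and 8162 at day 14. Acan rose by 4.98 ± 0.82 (adjusted p = 0.000129). Tnfaip6, which modifies hyaluronan in inflamed tissue, rose by 3.52 ± 0.64 (adjusted p = 0.000242) and the hyaluronan-degrading protein Cemip by 3.84 ± 0.72 (adjusted p = 0.00032). The hyaluronan synthase Has3 was the member that fell, at 641, 260.1 and 461 in the controls and 51.1, 37.5, 42.1 and 58.5 at day 14 (-3.13 ± 0.51, adjusted p = 8.66e-05).

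**Figure D3:**
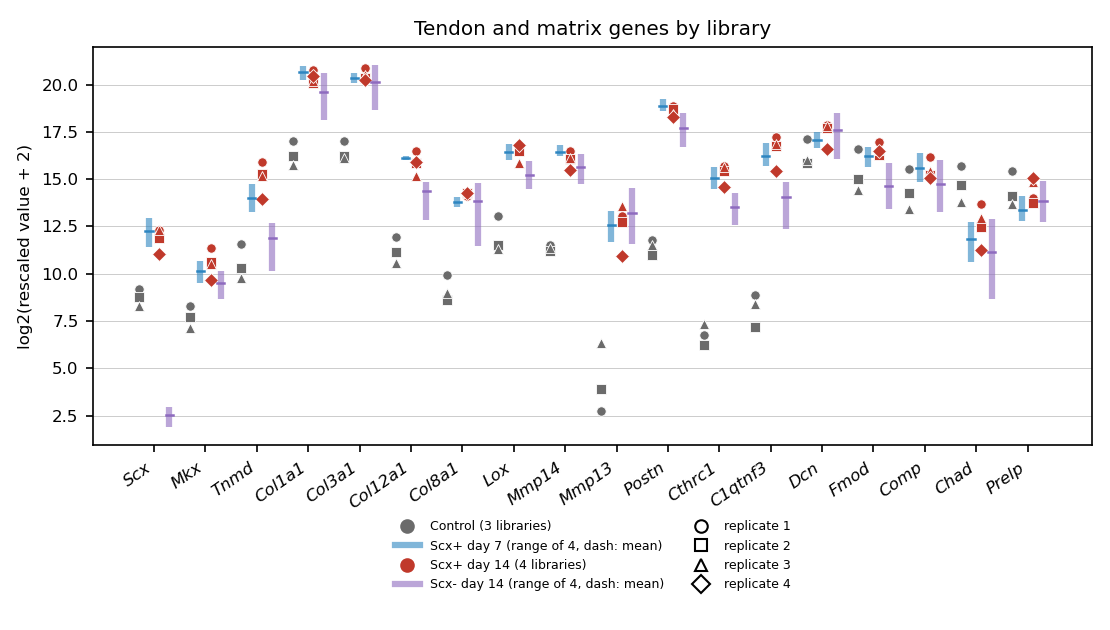
Log2(rescaled value + 2) of 18 tendon and matrix genes: grey points for the 3 control libraries, red points for the 4 Scx+ day 14 libraries with the marker shape giving the replicate, and bars for the range of 4 libraries with a dash at the mean for Scx+ day 7 (blue) and Scx- day 14 (purple). Cthrc1 runs from 72.4 to 159.7 in the controls and from 24699.9 to 53566 at Scx+ day 14, while Fmod, Comp and Prelp at the right overlap between these groups and Chad lies lower at day 14.

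Enzymes that cut matrix rose beside those that build it. Collagenase 3 (Mmp13, chr9:7272514-7283331), which cleaves fibrillar collagen, was 4.7, 13.3 and 78.6 in the controls and 8508, 6871, 12058 and 1959 at day 14. Mmp13 rose by 8.24 ± 0.98 (SE, adjusted p = 8.43e-06, limma). Mmp14, a membrane collagenase that also activates Mmp2, was 2919, 2327 and 2675 in the controls and 91116, 68196, 71266 and 46378 at day 14. Mmp14 rose by 4.68 ± 0.32 (adjusted p = 1.85e-08), and the gelatinase Mmp2 rose by 3.34 ± 0.35 (adjusted p = 1.47e-06). Mmp23 rose by 4.37 ± 0.29 (adjusted p = 1.27e-08) and Mmp19 by 2.94 ± 0.34 (adjusted p = 3.27e-06). Of 16 metalloproteinase genes tested, 12 passed higher and 1 lower, with a median of 3.14. The lower one, picked after its value was seen, was the membrane type enzyme Mmp15 (-2.51 ± 0.42, adjusted p = 0.000104). Of 17 ADAMTS and TIMP genes, 11 passed higher and 1 lower (median 1.27). The aggrecanase Adamts4 was 84.9, 54.4 and 22.2 in the controls and 1229, 681, 579 and 1199 at day 14. Adamts4 rose by 4.16 ± 0.52 (adjusted p = 8.48e-06), Adamts12 rose by 2.49 ± 0.31 (adjusted p = 7.57e-06) and Adamts16 by 4.94 ± 0.78 (adjusted p = 7.04e-05). The metalloproteinase inhibitor Timp1 was 812, 388 and 583 in the controls and 14224, 11426, 7039.7 and 6315 at day 14. Timp1 rose by 4.01 ± 0.37 (adjusted p = 3.91e-07). Timp4 was 2123, 2554 and 1711 in the controls and 29.4, 31.7, 106 and 1235 at day 14 (-4.27 ± 1.28, adjusted p = 0.00966, picked after its values were seen).

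Uptake and lysosomal breakdown of collagen was represented by 16 genes, of which 10 passed higher and 0 lower (median 1.26). Cathepsin K (Ctsk), which digests collagen, was 4336, 1937 and 2744 in the controls and 29392, 32018, 39729 and 24104 at day 14. Ctsk rose by 3.44 ± 0.36 (SE, adjusted p = 1.4e-06, limma). The collagen uptake receptor Mrc2 rose by 2.72 ± 0.30 (adjusted p = 2.06e-06), Ctsz by 1.49 ± 0.16 (adjusted p = 2.21e-06) and Ctsh by 2.37 ± 0.31 (adjusted p = 1.02e-05).

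Of 21 basement membrane genes 10 passed higher and 1 lower, with a median of 0.87. The laminin chain Lamb1 was 1331, 2622 and 1881 in the controls and 11866, 7141, 10831 and 10144 at day 14 (2.39 ± 0.31, SE, adjusted p = 1.07e-05, limma), and nidogen 1 (Nid1), which joins laminin to collagen IV, rose by 2.02 ± 0.27 (adjusted p = 1.37e-05). Lama4 rose by 1.52 ± 0.28 (adjusted p = 0.000267) and Col18a1 by 2.36 ± 0.48 (adjusted p = 0.000594). Of 17 integrins that bind matrix, 6 passed higher and 0 lower (median 0.40), and 11 did not pass. The share that passed higher was close to the 30.9% over all tested genes. Itga11, the integrin chain with which fibroblasts grip fibrillar collagen, was 1949, 1024 and 326 in the controls and 10789, 5144, 6153 and 10505 at day 14. Itga11 rose by 3.15 ± 0.48 (adjusted p = 5.14e-05). Its partner Itgb1 rose by 0.85 ± 0.16 (adjusted p = 0.000271), Itga5 by 1.13 ± 0.20 (adjusted p = 0.00015) and Itgb5 by 1.14 ± 0.20 (adjusted p = 0.000137).

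Signals of the TGF-beta and BMP family gave 11 of 31 higher and 6 lower, near the 30.9% and 25.0% of all tested genes. The median was 0.14, close to the 0.15 over all tested genes, so the counts show nothing particular to the family. The ligand Tgfb1, a driver of collagen synthesis, was 1007, 654 and 780.4 in the controls and 2324, 1916, 2565 and 2439 at day 14. Tgfb1 rose by 1.52 ± 0.16 (SE, adjusted p = 1.42e-06, limma). Follistatin-like 1 (Fstl1), a secreted protein of fibroblasts, was 19778, 14157 and 19035 in the controls and 225052, 158994, 203510.2 and 132439 at day 14. Fstl1 rose by 3.33 ± 0.32 (adjusted p = 6e-07). Myostatin (Mstn), a ligand made by muscle that limits its growth, was 4973, 10397 and 10682 in the controls and 293, 560.4, 214 and 374 at day 14 (-4.59 ± 0.74, adjusted p = 8.1e-05). Its close relative Gdf11 was 5820.2, 6443 and 11096 in the controls and 982, 1017, 741 and 500.5 at day 14 (-3.25 ± 0.30, adjusted p = 4.18e-07). Muscle fibre signal fell in the same libraries. The stress cytokine Gdf15 was 19.1, 12.3 and 1.3 in the controls and 98.8, 611, 114 and 117 at day 14 (4.09 ± 1.16, adjusted p = 0.00678), with replicate 2 alone high, and the BMP antagonist Grem1 was listed at 0 in all controls and at 33.7, 16.7, 25.8 and 26.7 at day 14. These last 2 genes were picked after their values were seen.

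Growth factor genes leaned upward, with 13 of 27 IGF, PDGF and FGF genes higher, 3 lower and a median of 0.62. The IGF binding protein Igfbp4 was 10693, 6784 and 6162 in the controls and 63937, 53419, 65798 and 34071 at day 14. Igfbp4 rose by 2.78 ± 0.30 (SE, adjusted p = 1.71e-06, limma). The ligands Pdgfd and Pdgfc rose by 2.66 ± 0.41 (adjusted p = 4.67e-05) and 1.75 ± 0.29 (adjusted p = 0.0001), and the receptor-like protein Pdgfrl by 3.13 ± 0.22 (adjusted p = 2.52e-08). Insulin-like growth factor 1 (Igf1), which drives collagen synthesis and growth of tendon, was 4569.5, 3591 and 4647 in the controls and 41120.1, 28298, 21529.6 and 17978 at day 14. Igf1 rose by 2.61 ± 0.48 (adjusted p = 0.000257). Igfbp2 was 10.1, 4.5 and 0.5 in the controls and 194, 674, 892 and 203 at day 14 (6.09 ± 1.23, adjusted p = 0.00057) and Igfbp5 moved the other way, at 84777, 98536 and 85735 in the controls and 23472, 28507, 29013 and 10600.3 at day 14 (-2.07 ± 0.47, adjusted p = 0.00137). Igf1, Igfbp2 and Igfbp5 were picked after their values were seen.

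Wnt genes included one of the largest rises. Wnt16, a ligand known for its part in bone, was 1.6, 0 and 0 in the controls and 1254, 180.5, 1424 and 273 at day 14, so that 2 of 3 controls were listed at 0, with a log2 difference of 7.82 ± 0.97 (SE, adjusted p = 6.8e-06, limma). The secreted Wnt inhibitors Sfrp2 and Sfrp1 rose by 3.79 ± 0.47 (adjusted p = 7.51e-06) and 2.53 ± 0.41 (adjusted p = 8.9e-05), and Dkk3 by 2.65 ± 0.45 (adjusted p = 0.00012). Of 25 genes, 10 passed higher and 3 lower (median 0.72), and without control replicate 1 the counts were 9 and 1. Among genes of the YAP and TEAD system, by which cells read tension, 10 of 18 passed higher and 2 lower (median 1.08). The transcription factor Tead2 was 61, 104 and 67 in the controls and 1212, 828, 1109.6 and 691 at day 14. Tead2 rose by 3.61 ± 0.29 (adjusted p = 8e-08), its cofactor Vgll3 rose by 2.82 ± 0.26 (adjusted p = 3.28e-07) and Amotl2 by 1.39 ± 0.25 (adjusted p = 0.000182). Crim1 was among the lower ones, at 3684, 3784 and 4489.7 in the controls and 786, 769, 1022 and 1392 at day 14 (-2.04 ± 0.27, adjusted p = 1.05e-05).

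Immediate early genes, which respond within minutes to a stimulus or to handling of tissue, gave 10 of 24 higher and 1 lower (median 0.99), and with library totals 17 and 0. Egr2, which acts with Egr1 in tendon collagen expression, was 0, 55.9 and 59.1 in the controls and 307, 276, 235 and 212 at day 14. Egr2 rose by 3.74 ± 0.90 (SE, adjusted p = 0.00216, limma). Klf6 rose by 1.14 ± 0.18 (adjusted p = 6.29e-05), Fosl2 by 1.24 ± 0.24 (adjusted p = 0.000402) and the orphan receptor Nr4a2 by 2.96 ± 0.57 (adjusted p = 0.00038). Its relative Nr4a1 was the member that fell, at 6786, 9737 and 7642 in the controls and 1184, 2464, 2598 and 4004 at day 14 (-1.76 ± 0.62, adjusted p = 0.0246, picked after its values were seen), and did not pass without control replicate 2 or 3 or day 14 replicate 1 (adjusted p = 0.0752, 0.0518 and 0.0756) or with library totals (0.104), sample quality weights (0.165) or the muscle list as a covariate (0.0631).

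Genes of mitosis formed the list with the highest share of members that passed higher, 31 of 34 with 1 lower and a median of 3.18, among the 48 lists described. Aurora kinase B (Aurkb), which guides chromosomes onto the spindle, was 0, 1 and 4.3 in the controls and 409, 395, 160.1 and 47.7 at day 14. Aurkb rose by 5.82 ± 0.58 (SE, adjusted p = 8.07e-07, limma). Cyclin B2 (Ccnb2), a partner of the mitotic kinase, was 9.1, 4.7 and 28.2 in the controls and 851, 839.5, 471 and 49.8 at day 14. Ccnb2 rose by 4.80 ± 0.77 (adjusted p = 8.09e-05). That kinase itself, Cdk1, was 43.5, 33 and 71.3 in the controls and 1039, 1196, 595 and 127 at day 14. Cdk1 rose by 3.51 ± 0.56 (adjusted p = 7.45e-05). Cdc20, which triggers the exit from mitosis, was 28.8, 55 and 21.6 in the controls and 773, 818, 517 and 120.4 at day 14. Cdc20 rose by 3.69 ± 0.52 (adjusted p = 2.09e-05). In all 4 genes day 14 replicates 1 and 2 were the highest and replicate 4 the lowest, yet still above every control.

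The spread across day 14 libraries was wide for this list. Its summed share of the signal was 0.0735%, 0.0740%, 0.0301% and 0.00876% in replicates 1 to 4 and 0.00527% to 0.00808% in the controls, so that replicate 4 was close to the controls. Nuf2, of the kinetochore, was 4.9, 7.1 and 1.5 in the controls and 663, 516, 172 and 34.7 at day 14 (5.17 ± 0.69, adjusted p = 1.29e-05). The proliferation marker Mki67 was 422, 92.7 and 124 in the controls and 4264, 4421, 1471 and 246 at day 14 (3.24 ± 0.76, adjusted p = 0.00216), where replicate 4 lay below control replicate 1. Hmmr, a spindle protein, was 20.4, 20.2 and 1.4 in the controls and 648, 586, 175 and 21.9 at day 14 (4.07 ± 0.88, adjusted p = 0.000941). In a fit of control and day 14 libraries alone Mki67 did not pass (adjusted p = 0.0548). The 1 lower member was securin (Pttg1), at 2151, 2125 and 2608 in the controls and 809, 999.6, 910.0 and 986 at day 14 (-1.31 ± 0.23, adjusted p = 0.000136). Ccnb2, Cdk1, Mki67, Hmmr and Pttg1 were picked after their values were seen. Incenp, a partner of Aurkb, rose by 2.11 ± 0.30 (adjusted p = 2.48e-05).

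Promoters of mitotic genes are known to carry CCAAT boxes, bound by NF-Y, and the cell cycle homology region (CHR), bound by the DREAM complex. The 250 bases before the RefSeq start were searched on both strands for CCAAT and for the CHR letters TTTGAA, in 29 mitosis genes that matched by symbol among 34. CCAAT occurred in 21 of them (72.4%), against 34.5% of all 27025 promoters, and TTTGAA in 9 (31.0%), against 16.3%. A match is a description of letters, not of binding. Of the searched genes whose values are described above, Ccnb2, Cdk1, Cdc20 and Mki67 hold both motifs, and Nuf2 and Pttg1 hold neither. The windows of the first 3 are given as RefSeq has them (GRCm38.p6, 5′ to 3′ on the gene's strand), with matches in capitals (ATTGG is CCAAT on the other strand). They lie at chr9:70421555-70421804 for Ccnb2, chr10:69352913-69353162 for Cdk1 and chr4:118437344-118437593 for Cdc20, all on the minus strand.
Ccnb2: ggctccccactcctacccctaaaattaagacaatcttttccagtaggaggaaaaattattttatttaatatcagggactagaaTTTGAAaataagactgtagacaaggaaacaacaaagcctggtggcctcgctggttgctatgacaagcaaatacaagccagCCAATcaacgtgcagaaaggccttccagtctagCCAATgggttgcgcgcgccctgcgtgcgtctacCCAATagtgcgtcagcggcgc
Cdk1: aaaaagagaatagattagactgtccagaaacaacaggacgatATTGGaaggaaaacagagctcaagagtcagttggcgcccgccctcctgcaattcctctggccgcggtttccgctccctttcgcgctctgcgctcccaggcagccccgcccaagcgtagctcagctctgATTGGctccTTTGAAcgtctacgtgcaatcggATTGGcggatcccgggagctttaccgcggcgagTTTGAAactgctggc
Cdc20: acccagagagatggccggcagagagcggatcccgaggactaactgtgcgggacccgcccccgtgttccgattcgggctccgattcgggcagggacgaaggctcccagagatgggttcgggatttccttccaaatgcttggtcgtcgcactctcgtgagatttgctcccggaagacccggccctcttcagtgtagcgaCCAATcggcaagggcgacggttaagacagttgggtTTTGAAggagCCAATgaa

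Of 28 genes of DNA replication 18 passed higher and 0 lower, with a median of 0.80. The ribonucleotide reductase subunit Rrm2 was 75.8, 19.9 and 114 in the controls and 1281, 1308, 948 and 558 at day 14. Rrm2 rose by 4.06 ± 0.42 (SE, adjusted p = 1.2e-06, limma). The licensing factor Cdt1 rose by 2.49 ± 0.23 (adjusted p = 3.84e-07), Uhrf1 by 2.70 ± 0.44 (adjusted p = 7.74e-05) and the primase Prim1 by 1.62 ± 0.28 (adjusted p = 0.00013). In a fit of the 7 libraries alone, 11 of the 28 passed. Among G1 regulators 12 of 19 passed higher and 1 lower (median 1.14). Inhibitors of cell division were among the genes of this list that rose. Cdkn2a was 1.3, 7.6 and 0 in the controls and 287, 137, 133 and 56.2 at day 14 (5.06 ± 0.57, adjusted p = 2.8e-06). Cdkn2b was 16.3, 149 and 50.2 in the controls and 981, 709.7, 832 and 342 at day 14 (3.67 ± 0.54, adjusted p = 3.32e-05). The kinases Cdk2 and Cdk6, which drive entry into the cycle, rose by 1.5 ± 0.18 (adjusted p = 6.23e-06) and 2.18 ± 0.28 (adjusted p = 8.69e-06).

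Interferon-induced genes were higher at day 14, with 19 of 24 passed higher, 0 lower and a median of 1.52. Irf7, the transcription factor that amplifies type I interferon, was 229.5, 300.5 and 269 in the controls and 874, 995, 682 and 1238 at day 14. Irf7 rose by 1.80 ± 0.29 (SE, adjusted p = 7.33e-05, limma). Oas3, a sensor of double-stranded RNA, was 1.8, 2.2 and 1.6 in the controls and 62.9, 126, 55.4 and 207 at day 14. Oas3 rose by 4.70 ± 0.58 (adjusted p = 6.02e-06). Bst2, which tethers viral particles, was 756, 520.5 and 529.5 in the controls and 1197, 1789, 1382 and 1329.6 at day 14. Bst2 rose by 1.25 ± 0.21 (adjusted p = 0.000116), and the RNA sensor Ddx58 rose by 1.61 ± 0.29 (adjusted p = 0.000184). Ifit1 was 80.4, 112 and 102 in the controls and 293, 1182, 642 and 374 at day 14 (2.44 ± 0.53, adjusted p = 0.000915). The ubiquitin-like protein Isg15 was 64.4, 62.7 and 57.2 in the controls and 189.5, 329, 224 and 266 at day 14 (1.97 ± 0.45, adjusted p = 0.00132). Ifit1 and Isg15 were picked after their values were seen. In each of the genes Oas3, Irf7, Bst2, Ifit1 and Isg15 the groups did not overlap. This follows in part from how the genes were picked, by a small p or after their values were seen. The share of all tested genes without overlap is not given, so nothing particular to this list is read from it. The list took 0.0116% to 0.0133% of the signal in the controls and 0.0356% to 0.0537% at day 14.

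The interferon-stimulated response element is the site at which the ISGF3 complex binds such genes. Its core was searched as GAAA, any pair of bases and GAAA again, on both strands of the same 250-base windows. Of 16 interferon genes that matched by symbol among 24, 8 held it (50%), against 3.04% of all promoters. The windows of Oas3, Ifit1 and Isg15 are given because, of the genes with a match whose values are described above, these had the largest differences. Capitals mark the matched letters, which overlap in Isg15 and in Ifit1 lie on the opposite strand. They lie at chr5:120777660-120777909 for Oas3, chr19:34640639-34640888 for Ifit1 and chr4:156200819-156201068 for Isg15, with Ifit1 on the plus strand and the other two on the minus strand.
Oas3: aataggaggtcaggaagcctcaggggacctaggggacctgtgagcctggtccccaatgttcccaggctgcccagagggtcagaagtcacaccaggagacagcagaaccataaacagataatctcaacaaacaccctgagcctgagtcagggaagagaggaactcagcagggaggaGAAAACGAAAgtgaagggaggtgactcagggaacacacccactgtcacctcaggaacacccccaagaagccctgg
Ifit1: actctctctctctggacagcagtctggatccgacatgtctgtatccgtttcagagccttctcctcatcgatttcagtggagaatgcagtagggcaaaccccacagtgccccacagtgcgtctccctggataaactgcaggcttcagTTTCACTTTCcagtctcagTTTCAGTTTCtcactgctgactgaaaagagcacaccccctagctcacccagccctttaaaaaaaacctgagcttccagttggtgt
Isg15: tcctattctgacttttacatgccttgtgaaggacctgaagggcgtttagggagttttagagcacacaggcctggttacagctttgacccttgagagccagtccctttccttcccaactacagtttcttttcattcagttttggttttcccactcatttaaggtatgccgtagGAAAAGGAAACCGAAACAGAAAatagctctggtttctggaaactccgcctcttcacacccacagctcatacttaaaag

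**Figure D4:**
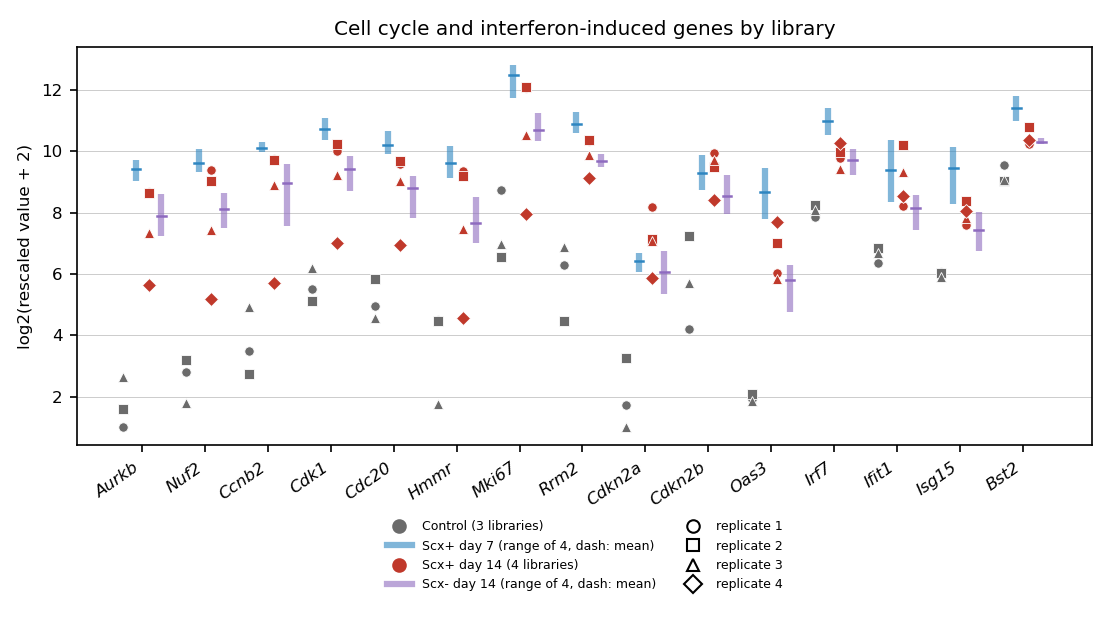
Log2(rescaled value + 2) of 15 cell cycle and interferon-induced genes, with grey points for the 3 controls, red points for the 4 Scx+ day 14 libraries (marker shape for the replicate) and bars for the range of 4 libraries with a dash at the mean for Scx+ day 7 (blue) and Scx- day 14 (purple). For Aurkb, Nuf2, Ccnb2, Cdk1 and Cdc20, day 14 replicate 4 (diamond) is the lowest of its group, at 47.7 for Aurkb against 160.1 to 409 in the other 3.

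Markers of macrophages and monocytes were higher at day 14, with 17 of 22 passed higher, 0 lower and a median of 1.63. Their share of the signal was 0.0419% to 0.0929% in the controls and 0.164% to 0.281% at day 14. Cd84, a receptor of myeloid cells, was 205, 114 and 131 in the controls and 1836, 1981, 1289 and 1324 at day 14. Cd84 rose by 3.43 ± 0.30 (SE, adjusted p = 2.23e-07, limma). The macrophage marker Cd68 was 1321, 986 and 1523 in the controls and 4046, 3987, 3894 and 3752 at day 14. Cd68 rose by 1.64 ± 0.29 (adjusted p = 0.000155), the Fc receptor Fcgr1 by 2.21 ± 0.32 (adjusted p = 2.84e-05) and the scavenger receptor Msr1 by 1.94 ± 0.32 (adjusted p = 0.000104). MHC class II genes gave 3 of 10 higher and 0 lower (median 0.64), close to the share over all genes. The protease Ctss, which prepares antigen for class II, rose by 2.35 ± 0.34 (adjusted p = 2.77e-05), whereas the invariant chain Cd74 was 3636, 3483 and 9302 in the controls and 5023, 7340.1, 8472 and 4131 at day 14 (0.29 ± 0.56, adjusted p = 0.678, picked after its values were seen). The call of 3 fell to 1 without any one of control replicates 1 and 2 or day 14 replicates 1 to 3.

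Signals of other white cells were small. Neutrophil genes gave 3 of 10 higher, close to the share over all genes, and 0 lower. They took 0.000548% to 0.000759% of the signal in the controls and 0.00148% to 0.00324% at day 14. Csf3r, the receptor for the granulocyte growth factor, was 94.7, 28.5 and 38 in the controls and 577, 454, 283 and 422 at day 14 (3.11 ± 0.38, SE, adjusted p = 5.83e-06, limma), while 4 defining genes, Ly6g, Mpo, Elane and Ngp, were too low to be tested. Lymphocyte genes gave 9 of 16 higher and 0 lower (median 2.0), at 0.000152% to 0.000312% against 0.000636% to 0.00124% of the signal. The higher count was 5 without day 14 replicate 1, and 4 both with the 1 ppm filter and in the 7 libraries alone. With a pseudocount of 10 the median was 0.99. Granzyme A (Gzma) and Cd3g were listed at 0 in all 3 controls, and at 83.7, 28.5, 11.7 and 29.2 and 6.6, 19.4, 14.4 and 12 at day 14. Genes at 0 in all controls, here and in other lists, enter the test only through other libraries and can pass only higher. Genes below the filter of 10 units in all controls also enter only through other libraries and have little room to pass lower. Among these are Aurkb, Nuf2, Cdkn2a, Oas3, Wnt16, Chrng and Ucma, so their calls and their part in the list counts carry this limit. Of 8 mast cell genes, 1 passed higher and 2 lower, near or below the shares over all genes, and without control replicate 1 there were 4 lower. The mast cell protease Mcpt4 was 110.4, 337 and 526 in the controls and 102, 66.8, 59.2 and 23 at day 14 (-2.24 ± 0.67, adjusted p = 0.00883) and did not pass without control replicate 3 (adjusted p = 0.0543).

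Chemokines and their receptors rose, with 20 of 28 higher, 1 lower and a median of 1.99. The receptor Cxcr4, which guides progenitors and leukocytes, was 93.7, 119 and 87 in the controls and 1671, 795, 1128 and 1447 at day 14. Cxcr4 rose by 3.59 ± 0.31 (SE, adjusted p = 2.21e-07, limma). Cxcl16 was 375, 264 and 477 in the controls and 2446, 2708, 2194 and 1608 at day 14. Cxcl16 rose by 2.60 ± 0.29 (adjusted p = 2.33e-06). The macrophage chemokines Ccl3 and Ccl4 were at 0 in 2 of 3 controls each, and at 254, 104, 49.4 and 58.9 and 101, 98.9, 36 and 31 at day 14. Ccl19, which attracts T cells, was the 1 that fell (-2.60 ± 0.79, adjusted p = 0.0102, picked after its value was seen).

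Of 23 interleukin and cytokine genes, 11 passed higher and 1 lower (median 1.02), and 7 and 1 without control replicate 2. The receptors Il4ra and Il13ra1, which carry IL-4 and IL-13 signals, rose by 2.39 ± 0.22 (adjusted p = 3.33e-07) and 2.25 ± 0.29 (adjusted p = 9.74e-06), and the IL-6 family ligand Lif by 2.17 ± 0.37 (adjusted p = 0.000127). Among 19 prostaglandin and leukotriene genes 11 passed higher and 4 lower (median 0.82), and 8 and 2 without day 14 replicate 2. The inducible cyclooxygenase Ptgs2 was 13.8, 32.9 and 40.4 in the controls and 393, 359.7, 234 and 303 at day 14. Ptgs2 rose by 3.48 ± 0.54 (SE, adjusted p = 5.66e-05, limma), and the prostaglandin E receptor Ptger4 rose by 2.26 ± 0.25 (adjusted p = 2.55e-06) and the synthase Ptges by 1.90 ± 0.24 (adjusted p = 6.4e-06). Complement gave 12 of 19 higher and 3 lower (median 1.22). The C1 proteases C1ra and C1s1 rose by 1.66 ± 0.25 (adjusted p = 3.58e-05) and 1.44 ± 0.25 (adjusted p = 0.000131) and the C3a receptor C3ar1 by 1.99 ± 0.31 (adjusted p = 4.61e-05), while Cfi, which degrades C3b, was listed at 0 in all controls and at 60.2, 88.5, 116 and 135 at day 14.

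Muscle fibre genes moved in both directions. Of 26 tested, 15 passed lower and 3 higher, with a median of -3.55. Myh4, the myosin of the fastest fibres, was 3879979.9, 6861262 and 4706640.1 in the controls and 5474, 31216, 8523 and 165281 at day 14. Myh4 fell by 7.82 ± 1.30 (SE, adjusted p = 0.000137, limma). Parvalbumin (Pvalb), the calcium buffer of fast fibres, was 623107, 713992 and 668174 in the controls and 246, 56928, 16105 and 25497 at day 14. Pvalb fell by 6.26 ± 1.49 (adjusted p = 0.00237). Muscle creatine kinase (Ckm) was 1102334, 1416776 and 1133423 in the controls and 5886, 129066, 73792 and 212411 at day 14 (-4.36 ± 1.34, adjusted p = 0.0119). Skeletal actin (Acta1) was 1862206, 2279854 and 1798826 in the controls and 18041, 384507, 187961 and 525598 at day 14 (-3.61 ± 1.5, adjusted p = 0.0516) without overlap and did not pass. Acta1 passed lower in 6 of the 19 alternatives: without day 14 replicate 4 (adjusted p = 0.0393), with the values as deposited (0.0466), with the 1 ppm filter (0.0456), without robust moderation (0.0458), in the 7 libraries alone (0.0222) and with the muscle list, of which it is a member, as a covariate (0.001). In these genes replicate 1 was the lowest of the day 14 group.

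The other fast myosins did not pass. Myh1, of type IIX fibres, was 401932, 428347 and 403629.9 in the controls and 23455, 510154, 288228 and 1442903 at day 14 (-0.63 ± 1.64, SE, adjusted p = 0.76, limma). Myh2, of type IIA fibres, was 4343, 34599 and 155258 in the controls and 879.5, 63485, 34387 and 126399 at day 14 (-0.36 ± 1.91, adjusted p = 0.882), with overlap between the groups in both genes. The difference of Myh1 turned to 0.54 without day 14 replicate 1 and that of Myh2 to 1.19. Without control replicate 3 the difference of Myh2 was 0.84. Slow troponins were low in the controls and higher in every day 14 library. Tnnc1 was 12.9, 10.6 and 11.4 in the controls and 784, 2340.0, 2894 and 4324 at day 14 (7.33 ± 1.23, adjusted p = 0.000153). Tnni1 was 7.4, 18.9 and 47.4 in the controls and 1856, 4419.7, 3653 and 4170.2 at day 14 (7.29 ± 1.27, adjusted p = 0.000211). Tnnt1 was 64.4, 40.2 and 168 in the controls and 1714, 2654, 2009.8 and 2675 at day 14 (4.83 ± 1.18, adjusted p = 0.00272). Tnnt2, the troponin T of heart and of embryonic muscle, was 20.2, 37.9 and 9.8 in the controls and 2148, 2438, 1582 and 2614 at day 14. Tnnt2 rose by 6.63 ± 1.11 (adjusted p = 0.000149). The slow myosin Myh7 was 25.8, 12.9 and 14.3 in the controls and 38.6, 1336, 177 and 221 at day 14 and did not pass (3.51 ± 1.79, adjusted p = 0.105). Myh7 passed in a fit of the 7 libraries alone (adjusted p = 0.0173) and with the muscle list, of which it is a member, as the covariate (0.00217). In that last fit 8 of the 26 genes passed higher and 17 lower. The covariate is the mean of these same genes, so nothing is read from those counts. Ckm, Acta1, Myh1, Myh2, Myh7 and Tnnt1 were picked after their values were seen.

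Of 14 myogenic genes, 3 passed higher and 1 lower (median 0.48), and 1 and 0 without control replicate 2. These counts are below the shares of 30.9% and 25.0% over all tested genes. The fetal acetylcholine receptor subunit Chrng was 1.9, 0 and 0 in the controls and 258, 256, 39 and 66.9 at day 14 (5.55 ± 1.33, SE, adjusted p = 0.00217, limma). The subunit Chrna1 was 59.9, 30.2 and 267 in the controls and 2205, 2845, 961 and 2469 at day 14 (4.60 ± 1.40, adjusted p = 0.0115). Embryonic myosin (Myh3) was 187, 182 and 517 in the controls and 1140.3, 22976, 4602 and 14763 at day 14 (4.63 ± 1.60, adjusted p = 0.0222). Musk, the kinase of the neuromuscular junction, was 1631, 3131 and 2821 in the controls and 129.9, 268, 180.0 and 789 at day 14 (-3.19 ± 1.08, adjusted p = 0.0203). The satellite cell factor Pax7 was 87.1, 336 and 33.3 in the controls and 14.3, 74.1, 42 and 74.7 at day 14 (-1.18 ± 1.24, adjusted p = 0.434). Myogenin (Myog) was 146, 227 and 462 in the controls and 701, 1482, 342 and 431 at day 14 (1.32 ± 1.14, adjusted p = 0.336). Pax7 and Myog were picked after their values were seen, and neither passed, although Myog did with the muscle list as a covariate (adjusted p = 0.0061). The call of Chrna1 ended without control replicate 2 (adjusted p = 0.0537). That of Myh3 ended without control replicate 1 or 2 or day 14 replicate 2 or 4 (adjusted p = 0.0591, 0.0637, 0.0599 and 0.0513) and with sample quality weights (0.0836). That of Musk ended without control replicate 2 or 3 or day 14 replicate 1 (adjusted p = 0.0598, 0.055 and 0.0549).

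**Figure D5:**
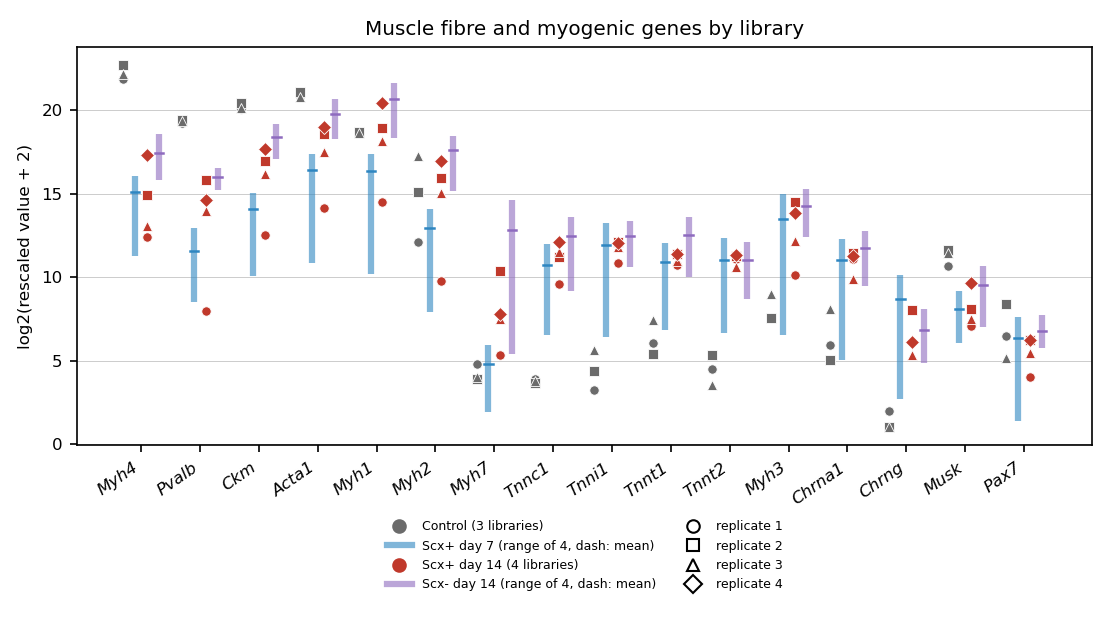
Log2(rescaled value + 2) of 16 muscle fibre and myogenic genes, with grey points for the 3 controls, red points for the 4 Scx+ day 14 libraries (marker shape for the replicate) and bars for the range of 4 libraries with a dash at the mean for Scx+ day 7 (blue) and Scx- day 14 (purple). Myh4 lies lower in every day 14 library than in every control, Myh1 and Myh2 overlap, and the slow troponins Tnnc1, Tnni1 and Tnnt1 lie higher in every day 14 library.

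Energy metabolism was lower at day 14. All 34 genes of oxidative phosphorylation passed lower, with differences from -2.52 to -1.27 and a median of -2.08. Cytochrome c (Cycs), the electron carrier, was 18455, 19744 and 27324 in the controls and 3558, 6169.6, 3605 and 3918 at day 14. Cycs fell by 2.36 ± 0.26 (SE, adjusted p = 1.82e-06, limma). Succinate dehydrogenase A (Sdha) was 30394, 43849 and 45848 in the controls and 5723, 8528, 6310.5 and 9562 at day 14. Sdha fell by 2.42 ± 0.29 (adjusted p = 4.86e-06), and Uqcrb and Ndufa9, of complexes III and I, fell by 2.22 ± 0.25 (adjusted p = 3.15e-06) and 2.21 ± 0.27 (adjusted p = 4.87e-06). Of 26 genes of fatty acid oxidation and the citrate cycle 25 passed lower and 1 higher (median -1.99). Suclg1, a citrate cycle enzyme, fell by 2.71 ± 0.27 (adjusted p = 7.76e-07), Pdha1 by 1.68 ± 0.18 (adjusted p = 2.14e-06) and the fatty acid dehydrogenase Acadm by 2.06 ± 0.23 (adjusted p = 2.42e-06). The 1 that rose was the liver form of carnitine palmitoyltransferase, Cpt1a, at 1538, 1313 and 1898 in the controls and 2369, 2599.8, 2228 and 3003 at day 14 (0.69 ± 0.23, adjusted p = 0.0156, picked after its values were seen), which did not pass without control replicate 2 (adjusted p = 0.0797). Muscle fibre signal was also lower in every day 14 library than in every control. With the muscle list as a covariate all 34 respiratory genes passed lower, at a median of -1.76. Because muscle signal differs between the groups in every library, that fit cannot separate muscle content from group. The part of muscle content in these lists was not tested further.

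Glycolysis genes split, with 14 of 23 lower, 6 higher and a median of -2.42, and 3 higher without control replicate 3 or without day 14 replicate 1. Lactate dehydrogenase A (Ldha) was 201568, 257574 and 248240.1 in the controls and 26693, 41935, 25482 and 27853 at day 14. Ldha fell by 2.97 ± 0.27 (SE, adjusted p = 3.93e-07, limma), Pkm fell by 2.40 ± 0.29 (adjusted p = 4.89e-06) and the regulator Pfkfb3 by 3.05 ± 0.25 (adjusted p = 1.54e-07). Gapdh, often used to normalise other genes, was 31676, 37275 and 34483 in the controls and 2406, 5909, 4373 and 7876 at day 14 (-2.87 ± 0.48, adjusted p = 0.000104, picked after its values were seen), with every day 14 library far below every control. Pgam1, the phosphoglycerate mutase of non-muscle tissue, moved the other way, at 2148, 1845 and 2821 in the controls and 12518, 9766, 8682 and 8045 at day 14 (2.10 ± 0.21, adjusted p = 8.39e-07), and the hexokinase Hk1, picked after its value was seen, rose by 1.47 ± 0.25 (adjusted p = 0.000107).

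All 12 adipocyte genes passed lower, with a median of -4.94. The fat cell hormone adiponectin (Adipoq) was 9587, 12269.7 and 14505 in the controls and 324, 163, 454 and 1136 at day 14. Adipoq fell by 4.87 ± 1.01 (SE, adjusted p = 0.000865, limma). Leptin (Lep) was 1040.0, 2151 and 1545 in the controls and 63.2, 24.7, 5.6 and 95.9 at day 14 (-5.49 ± 1.15, adjusted p = 0.000699). The fatty acid binding protein Fabp4 fell by 2.78 ± 0.49 (adjusted p = 0.000175) and the lipase Lipe by 3.11 ± 0.46 (adjusted p = 3.8e-05). In all 4 genes replicate 4 was the highest of the day 14 libraries, and that library also held the most muscle signal.

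Few endothelial genes passed, with 0 of 14 higher, 2 lower and a median of -0.30, which turned to 0.31 with library totals. The pan-endothelial marker Pecam1 was 13170.4, 8198 and 5052 in the controls and 5520.1, 4234, 8113 and 11029.9 at day 14 (-0.27 ± 0.38, SE, adjusted p = 0.56, limma, picked after its values were seen), and its difference turned to 0.06 without control replicate 1. Flt1, a receptor for VEGF, was 4812, 3893 and 2704 in the controls and 828, 818, 1237 and 2316 at day 14. Flt1 fell by 1.65 ± 0.41 (adjusted p = 0.0027). Of 6 lymphatic genes 1 passed higher, podoplanin (Pdpn), which fibroblasts also make (2.32 ± 0.28, adjusted p = 5.68e-06), and the median of 0.36 turned to -0.12 without control replicate 3. Pericyte and mural genes gave 4 of 13 higher, close to the share over all genes, and 1 lower. Their median of -0.09 changed sign in 5 of 19 alternatives and was 0.52 with library totals. Smooth muscle actin (Acta2), which marks contractile fibroblasts as well, was 2881, 2428 and 2376 in the controls and 14673, 21931, 10236 and 6613 at day 14. Acta2 rose by 2.25 ± 0.38 (adjusted p = 0.000122), and the PDGF receptor Pdgfrb rose by 1.45 ± 0.28 (adjusted p = 0.000392). The potassium channel regulator Abcc9, also made by muscle, was 12496, 23812 and 18369 in the controls and 1286, 2972, 2102 and 6202 at day 14 (-2.73 ± 0.68, adjusted p = 0.00309).

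Markers of fibroblasts and sheath progenitors rose, with 14 of 18 higher, 1 lower and a median of 1.57. Smoc2 was 1511, 2366 and 2051 in the controls and 6209, 7569.9, 8534 and 9757 at day 14. Smoc2 rose by 2.02 ± 0.21 (SE, adjusted p = 1.47e-06, limma), and the stromal marker Cd248 rose by 2.02 ± 0.33 (adjusted p = 8.94e-05). The exception was Tppp3, a marker of sheath progenitor cells, at 14338, 11929 and 19663 in the controls and 2909.7, 1343, 2770.2 and 1493 at day 14. Tppp3 fell by 2.90 ± 0.48 (adjusted p = 0.000112), and all 4 day 14 libraries lay below all 3 controls. Of 14 Schwann and nerve genes 2 passed higher and 2 lower (median -0.06, and 0.49 with library totals), and 0 higher without control replicate 1. In the reported fit both counts were below the shares of 30.9% and 25.0% over all tested genes. Mbp, which encodes myelin basic protein, fell by 1.87 ± 0.37 (adjusted p = 0.000397).

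Cartilage genes gave 5 of 13 higher and 2 lower (median 1.66), against 30.9% and 25.0% of all tested genes. With library totals the counts were 8 and 2. Besides Acan, Matn3 and Col11a1, the growth plate protein Ucma was 0, 0 and 1.6 in the controls and 253, 265, 368 and 89.4 at day 14, with 2 of 3 controls listed at 0 (6.49 ± 1.05, SE, adjusted p = 7.31e-05, limma). The cartilage collagen chain Col9a1, whose fall is given above, was 1 of the 2 lower members. Of 12 genes of osteoblasts and mineralisation 2 passed higher and 3 lower (median 0.52, with a change of sign in 5 of 19 alternatives), and 4 and 3 without control replicate 1. In the reported fit these counts were near or below the shares over all tested genes. Runx2, the transcription factor of bone, was 129, 69.1 and 202 in the controls and 772, 662, 610.4 and 787 at day 14. Runx2 rose by 2.51 ± 0.36 (adjusted p = 2.46e-05), and Enpp1, which makes the mineral inhibitor pyrophosphate, rose by 2.31 ± 0.46 (adjusted p = 0.000479). The pyrophosphate transporter Ank fell by 1.67 ± 0.24 (adjusted p = 2.11e-05) and alkaline phosphatase (Alpl) by 3.06 ± 0.80 (adjusted p = 0.0038). Among 10 erythroid genes 3 passed higher, close to the share over all genes, and 1 lower. The globin entry Hbb-bs was listed at 0 in all controls and at 4943, 0, 701 and 2589 in day 14 replicates 1 to 4. The entry Hbb-b1 was 13908, 11648 and 19679.8 in the controls and 39758, 12598, 21014 and 38829 at day 14 (0.78 ± 1.13, adjusted p = 0.575, picked after its values were seen). How reads shared by these near-identical genes were assigned is not given in the sources used here. Of 7 epidermal genes 1 passed higher, and the list held at most 0.00253% of the signal in any of the 7 libraries.

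Among the 15 largest rises over all genes at or above 5 ppm were several outside the lists. C1qtnf3, a secreted C1q-like protein, was 464, 145 and 335 in the controls and 152587, 111464, 118903 and 44192 at day 14. C1qtnf3 rose by 8.42 ± 0.58 (SE, adjusted p = 2.48e-08, limma). Lrrc15, a surface protein of activated fibroblasts, was 132, 77.6 and 74.1 in the controls and 28179.5, 19078, 13125 and 12200.1 at day 14. Lrrc15 rose by 7.52 ± 0.43 (adjusted p = 3.83e-09). The metalloproteinase Adam12 was 42.8, 123 and 51.4 in the controls and 18679, 12217, 8252 and 8856 at day 14. Adam12 rose by 7.41 ± 0.38 (adjusted p = 1.07e-09). Klk1, tissue kallikrein, was 1.8, 0 and 160.2 in the controls and 1789, 1206, 3992 and 1306 at day 14. Klk1 rose by 7.41 ± 1.21 (adjusted p = 0.000117), and the protease-like protein Prss35 rose by 6.89 ± 0.73 (adjusted p = 1.58e-06). Igfn1, an immunoglobulin domain protein of muscle, was 11.4, 16 and 13.2 in the controls and 2890.3, 5332, 2389 and 7854 at day 14. Igfn1 rose by 8.06 ± 1.40 (adjusted p = 0.000203). Its highest value was in the day 14 library with the most muscle signal, and its lowest values were in the controls, which held more muscle signal still. The part of muscle content in Igfn1 was not tested.

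The 15 largest falls by the same rule, with the genes of the muscle lists passed over, were led by Odf3l2, and the muscle signal fell in the same libraries. Mylk4, a kinase of striated muscle, was 95070.2, 159513 and 144896 in the controls and 183, 3519.8, 628 and 2558 at day 14. Mylk4 fell by 7.01 ± 1.07 (SE, adjusted p = 7.12e-05, limma). Aqp4, the water channel of fast fibres and of the brain, was 1343, 1921 and 2406 in the controls and 0, 19.8, 2.4 and 5.6 at day 14. Aqp4 fell by 8.22 ± 0.85 (adjusted p = 1.2e-06). Fbp2, the muscle fructose bisphosphatase, fell by 6.52 ± 1.12 (adjusted p = 0.000147), Ostn, a peptide hormone of muscle and bone, by 7.37 ± 1.2 (adjusted p = 8.66e-05), and the carboxylesterase Ces1d by 6.49 ± 1.02 (adjusted p = 6.12e-05). Odf3l2 was 9912, 9601 and 8426 in the controls and 2.6, 3.3, 0.8 and 376 at day 14. Odf3l2 fell by 9.52 ± 1.29 (adjusted p = 1.55e-05). Crip3, a LIM protein, was 1176, 1881 and 2789.7 in the controls and 13.1, 1.9, 0 and 14.2 at day 14. Crip3 fell by 8.12 ± 0.65 (adjusted p = 9.21e-08), and Kcng4, a potassium channel subunit, by 6.87 ± 0.82 (adjusted p = 4.55e-06). The other falls were Cers1, Apoo-ps, Asb18, Car14, Lrrc38, Tmem233 and Gdap1, with differences from -8.27 to -6.75.

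Set against Scx+ tendon 7 days after the start of the stimulus, the day 14 libraries differed in 5 of 16619 genes (0.0301%), 2 higher (0.012%) and 3 lower (0.0181%), with 1758 at an unadjusted p under 0.05, and 27, 3, 1 and 12 genes passed without day 14 replicates 1 to 4 in turn. Bpgm, the red cell enzyme that makes bisphosphoglycerate, averaged 5213 ± 3556 at day 7 and 1049 ± 111 at day 14 (SD, n = 4 each), a log2 difference of -2.07 ± 0.31 (SE, adjusted p = 0.0156, limma). Its control values were 5353, 6168 and 6699.9, so that day 14 was below both. Lmnb1, which encodes lamin B1 of the nuclear lamina, averaged 1332 ± 226 and 481 ± 200.2, a difference of -1.55 ± 0.23 (SE, adjusted p = 0.0156, limma), and the kinase Grk3 755 ± 49.8 and 280.0 ± 89.3, a difference of -1.49 ± 0.22 (SE, adjusted p = 0.0156, limma). Scara5, a ferritin receptor of fibroblasts, averaged 757 ± 293 and 6502 ± 3841, a difference of 2.98 ± 0.42 (SE, adjusted p = 0.0156, limma). The fifth was the predicted gene Gm15674. Lmnb1, Grk3, Scara5 and Gm15674 were picked after their values were seen. Without day 14 replicate 3, Bpgm, Lmnb1 and Scara5 did not pass (adjusted p = 0.0936, 0.0936 and 0.0732), and without replicate 2 Bpgm did not (0.0732). The median over the 34 mitosis genes was -1.58 and over the 24 interferon genes -0.55, with 0 passed in each. Mitosis genes took 0.0704% to 0.124% of the signal at day 7, a range that overlaps that of day 14. Col1a1 averaged 1666260.0 ± 355565 at day 7 and 1378223 ± 293968 at day 14 (-0.27 ± 0.41, SE, adjusted p = 0.872, limma), and Scx 4898 ± 2399 and 3969 ± 1402 (-0.26 ± 0.39, SE, adjusted p = 0.873, limma).

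Set against Scx- tendon of the same day, 86 genes differed (0.517%), 18 higher and 68 lower in Scx-, with 2429 at an unadjusted p under 0.05. This comparison shares the Scx+ day 14 libraries with the comparison to the controls. Scx, the deleted gene, averaged 3969 ± 1402 in Scx+ and 3.7 ± 1.96 in Scx- tendon (SD, n = 4 each), a log2 difference of -9.43 ± 0.39 (SE, adjusted p = 1.06e-10, limma). Tnmd averaged 38258 ± 19159 and 3822 ± 3043, a difference of -3.63 ± 0.62 (adjusted p = 0.013), and did not pass without Scx+ replicate 1 (adjusted p = 0.0637). C1qtnf3 averaged 106786 ± 45404 and 16727 ± 10671, a difference of -2.82 ± 0.54 (adjusted p = 0.0231). For Cthrc1 the means were 43596 ± 13246 and 11925 ± 6172, a difference of -1.95 ± 0.39 (adjusted p = 0.0312). Ucma differed by -4.93 ± 0.97 (adjusted p = 0.0254), Thbs4 by -1.94 ± 0.40 (adjusted p = 0.0378), Eya2 by -1.90 ± 0.37 (adjusted p = 0.0255) and Pdgfrl by -1.03 ± 0.21 (adjusted p = 0.0297), while Plod1 differed by -0.95 ± 0.15 (adjusted p = 0.00674) and passed in all 9 alternatives run. C1qtnf3, Cthrc1, Ucma and Pdgfrl did not pass without Scx+ replicate 1, 2 or 3, Eya2 without replicate 1, 3 or 4, and Thbs4 without any one of the 4, with adjusted p from 0.062 for Pdgfrl without replicate 2 to 0.169 for Thbs4 without replicate 1. The number of genes past the threshold was 22, 40, 49 and 103 without Scx+ replicates 1 to 4 in turn. Postn, Mmp13 and Lrrc15 did not pass between the genotypes. Postn averaged 395584 ± 73834 in Scx+ and 217131 ± 115921 in Scx- tendon, a difference of -1.0 ± 0.32 (adjusted p = 0.2). The means of Mmp13 were 7349 ± 4195 and 9334 ± 9648, a difference of 0.11 ± 0.91 (adjusted p = 0.97), and those of Lrrc15 were 18146 ± 7351 and 10458 ± 6134, a difference of -0.95 ± 0.40 (adjusted p = 0.3). Muscle fibre genes took 4.61% to 20.2% of the signal in Scx- libraries, against 0.308% to 9.23% in Scx+ at day 14, and the part of this in the genotype differences was not tested beyond the fit with the muscle list as a covariate, in which 41 genes passed. Cthrc1, Ucma, Pdgfrl and Thbs4 did not pass in that fit (adjusted p = 0.0557, 0.0564, 0.0932 and 0.125), while Scx, Tnmd, C1qtnf3, Eya2 and Plod1 did. With the replicate number as a block Cthrc1, Thbs4 and Pdgfrl did not pass (adjusted p = 0.0663, 0.0503 and 0.0664).

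The authors' deposited table lists this comparison for 15951 genes, of which 7987 have an adjusted p under 0.05, 4264 higher and 3723 lower at day 14. Of 15905 genes in both, 7699 passed in the authors' deposited table and in the limma fit, all 7699 with the same sign, 286 passed only in the table and 1357 only in the fit. The authors' deposited table has Egr1 at 1.31 ± 0.37 (SE, adjusted p = 0.00135), where the limma fit did not pass it. It also passes other genes that the limma fit did not. Among them are Myh7 at 4.69 ± 0.90 (adjusted p = 1.49e-06) and Acta1 at -2.80 ± 0.70 (adjusted p = 0.000244). Myog is at 1.42 ± 0.56 (adjusted p = 0.0258) and Hbb-b1 at 0.92 ± 0.40 (adjusted p = 0.0479). The authors' deposited table has Fmod at 0.96 ± 0.45 (SE, adjusted p = 0.0698) and Comp at 0.85 ± 0.46 (SE, adjusted p = 0.122), and neither passed there.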

How the data were processed

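RNA-seq of mouse plantaris tendon was analysed in 7 libraries, 3 Scx+ controls and 4 Scx+ day 14 libraries, with 12 libraries of the other 3 groups in the same model. Per the submitters' processing notes, FastQC, STAR and DESeq2 were used with the mm10 build; the annotation, the counting and its use of strand are not given in the sources used here. The deposited values are a scaled, non-whole signal per gene, so a count model could not be used, and depth in reads is unknown. The authors also deposited a table of log2 fold changes with standard errors and adjusted p-values for this comparison. The deposited signal was rescaled by medians of ratios over 13703 genes above 0 in every library (factors 1.08 to 1.09 in the controls, 1.0 to 1.03 at day 14), and of 24972 genes, 16619 with at least 10 units in at least 3 libraries were kept. Genes below 10 units in every control entered only through other libraries, which favours calls higher at day 14. Differences of log2(value + 2) were tested with limma 3.58.1 (R 4.3.3, trend and robust moderation) in 1 model of 5 groups, with Benjamini-Hochberg adjustment over all tested genes and a threshold of 0.05. The procedure was tested first on simulated data with 200 changed genes. Far more genes passed in this comparison, and the simulated data held no shift of muscle share. The simulation thus does not test the scaling under such changes. Lists are described by counts and medians, without a set test. Alternatives were library totals, the trimmed mean of M values (TMM, computed by the published formula), the values as deposited, pseudocounts 1 and 10, no filter, a filter of 1 ppm of the library total, no robust moderation, the 2 groups alone, sample quality weights, the muscle list as a covariate, the replicate number as a block, and leaving out each of the 7 libraries. Genes named are Scx, Mkx, Egr1, Tnmd, Fmod, Dcn, Col1a1, Col1a2 and Col3a1, the 15 largest rises and falls with no overlap and a mean of at least 5 ppm (for falls, muscle lists passed over), and of each list up to 4 members with the smallest p, some left out for length; genes outside this rule are marked. Members and lists were chosen with earlier results of these data known. Promoters are from RefSeq (GRCm38.p6) and gene coordinates from GENCODE annotation of mm10. One result is not reported here.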

Additional observations from a re-analysis of the deposited data

Results flagged for a closer look

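In 13 of the 228 named genes examined (5.7%) 1 of the 4 Scx+ day 14 libraries stood apart from the other 3 on the log2 scale by Dixon's test. Chance flags about 1 in 20 groups, so the number of these genes is close to what chance gives and no pattern is read from them. Replicate 4 was the lowest for 6 matrix, secretory and signalling genes: Dcn at 100393.2 rescaled units against 213886 to 242262 in the others, Lum at 31731 against 88995 to 100019, Sfrp2 at 10759 against 16051 to 16525, Kdelr3 at 5895 against 8954 to 9602, Il13ra1 at 3594 against 5537 to 5905, and Matn3 at 98.1 against 345 to 444. Replicate 4 was also the highest for Odf3l2, at 375.8 against 0.8 to 3.3, and for Apoo-ps, at 254.1 with the other 3 listed at 0. Replicate 1 was the lowest for Col8a1, at 17476 against 19670.3 to 20118, and for Kcng4, at 0.8 against 30.5 to 43.9. Replicate 1 was the highest for Cers1, at 201.3 with the other 3 listed at 0, and for Col24a1, at 1327 against 807 to 843. Replicate 2 was the highest for Gdf15, at 610.8 against 98.8 to 117.3.

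Of the 86 genes in which Scx- tendon differed from Scx+ tendon at day 14 by limma's adjusted p, 9 are named in the text. The log2 differences, Scx- minus Scx+, were -9.43 for Scx, -3.63 for Tnmd, -1.95 for Cthrc1, -2.82 for C1qtnf3, -1.90 for Eya2, -1.94 for Thbs4, -1.03 for Pdgfrl, -4.93 for Ucma and -0.95 for Plod1. Between day 14 and day 7 in Scx+ tendon the differences were -2.07 for Bpgm, -1.55 for Lmnb1, 2.98 for Scara5 and -1.49 for Grk3.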

How the results depend on the processing

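Among 19 alternatives to the comparison of Scx+ day 14 with the controls, the number of genes past the threshold stayed within 1.5 times the reported one, from 7939 (the 7 libraries alone) to 10542 (library totals), and was 8154 to 9212 with 1 library left out. With library totals 8428 genes passed higher and 2114 lower, and the median of all genes moved up by 0.58, as the construction of that scaling shows; the medians of the ribosome biogenesis, endothelial, pericyte and Schwann lists changed sign. Deviations of same-numbered control and Scx+ day 14 libraries from their group means gave correlations of 0.0869, -0.0037 and 0.00016 for numbers 1 to 3. No reference for these values was computed, so they do not settle whether same-numbered libraries share a batch. With the number as a block 8583 genes passed, 4796 higher and 3787 lower. Against day 7, 11 genes passed with TMM scaling, 28 with the values as deposited, 27 with the muscle list as a covariate, 4 with the replicate block and 1 to 27 without 1 day 14 library. Against Scx- tendon 993 passed with the values as deposited, where the median of all genes moved by -0.23, 41 with the muscle covariate, 58 with the block and 22 to 103 without 1 Scx+ library. Some single genes changed sign. Mia3, which passed lower in the reported fit, was at 0.0842 with library totals and did not pass there (adjusted p = 0.565, limma). The others named here had not passed in the reported fit. With library totals the log2 difference was 0.24 for Myh2 and 0.34 for Pecam1, and with the values as deposited -0.0364 for Grk3 and -0.0959 for Prelp. For Prelp it was -0.0799 with sample quality weights and -0.0205 with the replicate block. With the muscle covariate, to which Myh1 and Myh2 themselves belong, both passed higher, at 1.73 for Myh1 (adjusted p = 0.00056) and 2.26 for Myh2 (adjusted p = 0.0112), and the difference was -0.0711 for Cd74, 0.43 for Pax7 and -0.23 for Prelp. With 1 library left out the range was -1.44 to 0.54 for Myh1, -1.73 to 1.19 for Myh2, -0.065 to 0.34 for Grk3, -0.63 to 0.0631 for Pecam1 and -0.39 to 0.51 for Prelp. Sample quality weights gave 6 higher and 0 lower immediate early genes, 3 and 9 muscle fibre genes, 9 and 4 basement membrane genes and 0 and 1 erythroid genes, and 3 and 14 glycolysis genes. Where no cause is named, the cause was not tested. The number of reads behind the values is unknown, so the limit that depth sets for genes of low signal could not be given.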
